A study of Mus musculus with 6 samples.

Results

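The colony-stimulating factors and the hematopoietic cytokines close to them were taken as 10 genes that fibroblasts can make for myeloid and lymphoid cells: Csf1, Csf2, Csf3, Il34, Kitl, Flt3l, Thpo, Tslp, Il7 and Il15. They were found by gene identifier in the annotation and are 10 of the 55426 features in the table. RNA was measured by poly(A) RNA-seq in 6 samples of pancreatic stellate cells (PSCs), the fibroblast precursors of the pancreas, isolated from C57BL/6 mice and used as primary lines at early passage. All 6 samples were cocultured for 48 h with organoids of mT3, a tumor line derived from the KPC mouse model of pancreatic ductal adenocarcinoma (PDAC). PSCs sat in Matrigel in a transwell insert and the organoids in the compartment below. Normoxic samples (n = 3) were kept at 21% O2 and hypoxic samples (n = 3) at 1% O2. What the groups share, the coculture and the Matrigel, has no control among these samples. The labels do not say whether replicates came from separate mice or PSC lines, so p-values measure the spread between these samples, which may be technical.

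These proteins set how many blood cells of each lineage are made and survive. CSF1 and IL-34 act through the receptor CSF1R on monocytes and macrophages, GM-CSF (Csf2) acts on granulocytes, macrophages and dendritic cells, and G-CSF (Csf3) drives the production and release of neutrophils. Stem cell factor (Kitl), FLT3 ligand and thrombopoietin act on stem cells, progenitors, dendritic cell precursors and megakaryocytes, and TSLP, IL-7 and IL-15 act mainly on dendritic cells and lymphocytes. In PDAC, factors of this kind made by tumor cells and fibroblasts are known to shape the myeloid infiltrate.

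Library totals ran from 24749601 to 25914892 counts at 21% O2 and from 25847719 to 31925054 at 1% O2. At these totals 3 counts, the least taken as detection, correspond to between 0.0943 and 0.122 CPM, the unit used throughout, which is a count scaled to the size of its library. All 10 genes chosen as a check on the oxygen labels were called higher at 1% O2, from Ldha (log2 fold change 1.03) to Car9 (5.13). Fibroblast markers were abundant in every sample, with a summed level between 28424 and 35619 CPM. Macrophage markers were present too, at 1070 to 1904 CPM in the normoxic and 548 to 1001 CPM in the hypoxic samples, which did not overlap. Of 14 tested macrophage markers, 9 were called lower and 0 higher. The most abundant of them was Lyz2, at 653, 1164 and 883 CPM at 21% O2 and 315, 546 and 378 CPM at 1% O2. Lyz2 was the larger part of the sum in every sample, so the gap in the sum rests largely on it. By gene, 6 of the 14 tested markers did not overlap between the groups, against 68.9% of all tested genes. None of the list was at 0. Of the tumor cell and epithelial markers, Epcam had at most 1 count in a sample, and Krt19 was the only marker of that list that was called, higher with a log2 fold change of 4.94 (edgeR adjusted p = 1.3e-07). The summed level of that list was 3.23 to 5.396 CPM at 21% O2 and 25.1 to 29.0 CPM at 1% O2, without overlap. Krt19 alone gave 1.04, 0.455 and 0.649 CPM of it at 21% O2 and 20.6, 21.7 and 23.9 CPM at 1% O2. The gap in the sum was therefore mostly that of Krt19. Krt8, Krt18 and Cdh1 had at most 6 counts in a sample, and Muc1 was higher without overlap but under the fold (0.58). Neutrophil markers summed to at most 0.645 CPM in any sample, with Ly6g, Cxcr2, S100a9, Ltf, Ngp and Retnlg at 0. Lymphocyte markers summed to at most 0.885 CPM, with Cd3e, Cd3g, Ms4a1 and Ncr1 at 0. Endothelial markers summed to 11.9 to 17.7 CPM at 21% O2 and 15.8 to 22.8 CPM at 1% O2.

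Hypoxic PSC samples differed from normoxic PSC samples in 6 of the 9 cytokine genes that could be tested. Csf3, Thpo, Tslp, Il34 and Flt3l were higher at 1% O2 and Il7 was lower, while Csf1, Kitl and Il15 did not pass the test. The call, by edgeR's quasi-likelihood test over all genes, asked for a change beyond 1.5-fold and an adjusted p under 0.05. By this rule 34.2% of the 16207 tested genes were called, 18.9% higher and 15.3% lower. The groups did not overlap for 6 of the 9, against 68.9% of all tested genes, so that a gap between the groups was common in these data. The median log2 fold change of the 9 genes was 0.59, and that of all tested genes was -0.00398. The filter on low counts bears on these numbers. Csf3 and Tslp reached its level, 0.386 CPM, in 0 of 3 normoxic and 3 of 3 hypoxic samples, and Thpo in 2 of 3 and 3 of 3, so they entered the test through the samples in which they were high. Csf2 reached it in no sample and was not tested.

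**Figure D1:**
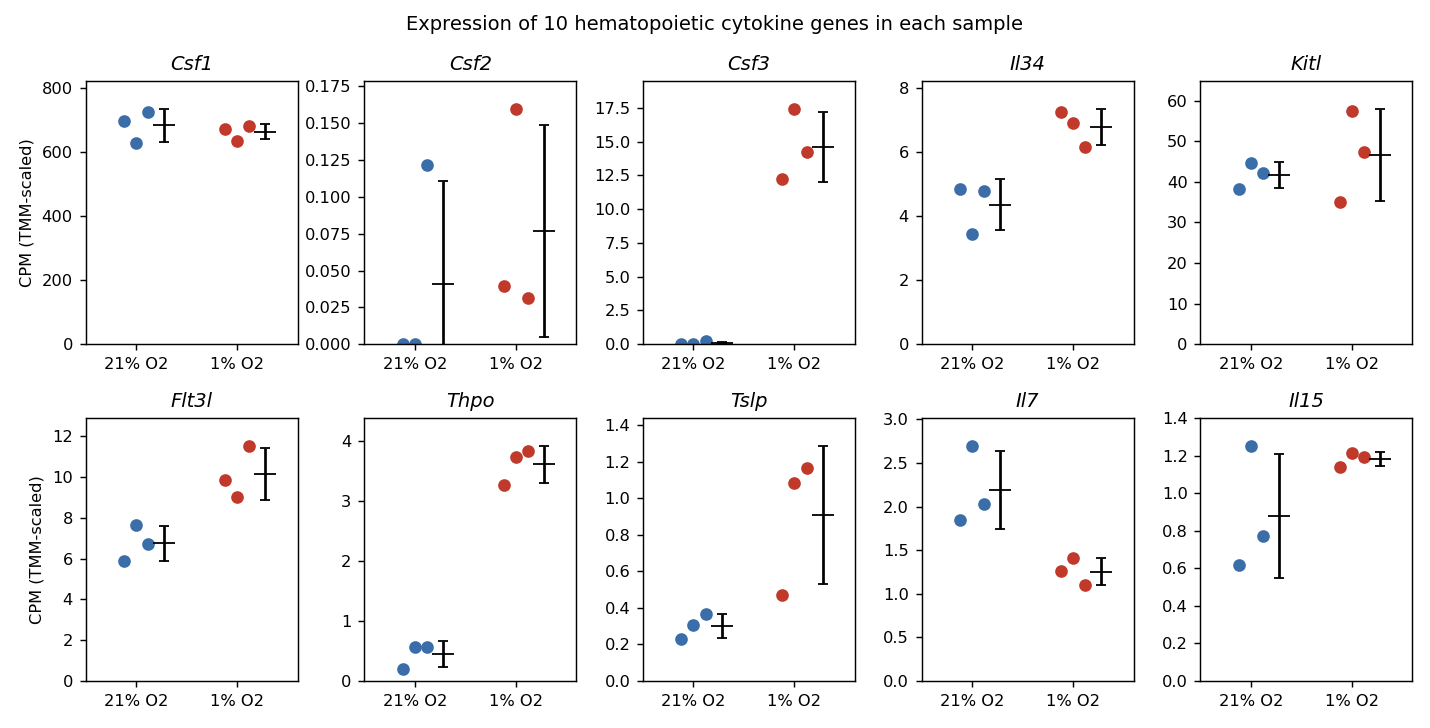
Expression of the 10 cytokine genes in each sample, in CPM on axes that start at 0, with 1 panel per gene. Blue points are the 3 samples at 21% O2, red points the 3 at 1% O2, and the bar beside them is the mean with its SD. The groups are apart for Csf3, Thpo, Tslp, Il34, Flt3l and Il7 and overlap for Csf1, Csf2, Kitl and Il15.

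Csf3 showed the widest change of the 10 genes. Csf3 (ENSMUSG00000038067, chromosome 11, 98701263 to 98703629, plus strand, GRCm38) had 1, 1 and 5 counts at 21% O2, but 312, 545 and 453 at 1% O2. In CPM these are 0.0385, 0.0380 and 0.203 against 12.3, 17.4 and 14.2. Normoxic replicates 1 and 2 lie below the detection limit of 3 counts and normoxic replicate 3 a little above it. Each hypoxic sample lies far above every normoxic one. The log2 fold change was 7.26 (SE 0.33, 95% CI 6.51 to 8.02; edgeR adjusted p = 3.15e-07). Because the denominator is so small and Csf3 passed the filter through the hypoxic samples, the size of this fold is uncertain. It depends on normoxic replicate 3, without which the log2 fold change was 8.42. Csf2 (ENSMUSG00000018916, chromosome 11, 54247271 to 54249667, minus strand) stayed at the floor, with 0, 0 and 3 counts at 21% O2 and 1, 5 and 1 at 1% O2. Of the 6 samples, 2 exceeded or reached 3 counts, 1 in each group, so that a difference in Csf2 was not detectable at this depth.

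The mRNAs of Csf2 and Csf3 are textbook cases of short-lived cytokine messages with AU-rich elements, copies of ATTTA in the 3′ untranslated region that decay factors bind. The densest 30 bases of each are shown because Csf3 changed most of the tested cytokine genes and Csf2, which stayed at the detection limit, holds the densest run of these elements among the 10. They were read from the GENCODE M21 transcripts on GRCm38, for each gene the coding transcript with the longest 3′ end, and run 5′ to 3′ with ATTTA in capitals.
Csf2: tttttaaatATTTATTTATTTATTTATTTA
Csf3: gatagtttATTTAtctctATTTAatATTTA
The Csf3 stretch starts 23 bases after the stop codon and the Csf2 stretch 229 bases after it. Csf2 held 9 copies of ATTTA in 317 bases (28.4 per kb), a density that 0.0403% of the 19846 genes with at least 100 bases there matched or exceeded. It also held 4 copies, overlaps included, of the nonamer TTATTTATT, which 7.60% of all 20985 genes with a 3′ untranslated region held at least once. Csf3 held 6 copies in 669 bases (8.97 per kb, matched or exceeded by 1.21% of genes) and no nonamer. Kitl had 14 copies, but in 4435 bases. Il7 had 6 in 3846 bases and Csf1 4 in 2111. Il34 and Il15 had 1 each, while Flt3l and Thpo had none. Tslp had 2.

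Csf1 was the dominant transcript of the group and did not pass the test. Csf1 (ENSMUSG00000014599, chromosome 3, 107741048 to 107760469, minus strand) measured 695, 626 and 725 CPM at 21% O2 and 672, 635 and 681 CPM at 1% O2. The ranges overlap almost entirely. Its log2 fold change was -0.04 (SE 0.07, 95% CI -0.20 to 0.11; edgeR adjusted p = 0.617), an interval that lies inside the 1.5-fold lines on both sides. Il34 (ENSMUSG00000031750, chromosome 8, 110741829 to 110805924, minus strand), which encodes the other ligand of CSF1R, was at 4.85, 3.45 and 4.79 CPM at 21% O2. It reached 7.26, 6.92 and 6.16 CPM at 1% O2, above every normoxic sample. This was an increase of 1.55-fold (95% CI 1.21 to 1.99; edgeR adjusted p = 0.00667), close to the fold needed for a call. Without normoxic replicate 2, its lowest sample, the log2 fold change was 0.49, and Il34 was no longer called. Antisense genes Gm15894 and Gm15895 share 22 and 75 exon bases with Il34, and neither exceeded 9 counts in a sample.

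As a share of the ligands of CSF1R, Il34 remained minor. It made up 1.69% ± 0.199 of the summed Csf1 and Il34 level per kb of exon at 21% O2 and 2.69% ± 0.268 at 1% O2 (SD, n = 3 each), with groups that did not overlap (exact permutation test, two-sided p = 0.1, the smallest that 3 against 3 allows). Csf3 went from 0.0484% ± 0.0469 to 7.44% ± 1.44 of the summed level per kb of Csf1, Csf2, Csf3 and Il34 (exact permutation p = 0.1). The summed CPM of all 10 genes was 739 ± 48.3 at 21% O2 and 747 ± 17.5 at 1% O2 (exact permutation p = 0.9), because Csf1 alone gave 92.3% ± 0.975 and 88.6% ± 1.97 of it. Without Csf1 the sum of the other 9 was 56.8 ± 4.41 and 85.2 ± 14.0 CPM, again without overlap (exact permutation p = 0.1). In bulk RNA, more cells that make a transcript and more RNA per cell cannot be told apart.

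Among the factors of stem cells and progenitors, Thpo and Flt3l were higher at 1% O2 and Kitl was not called. Thpo (ENSMUSG00000022847, chromosome 16, 20724454 to 20734511, minus strand), which encodes thrombopoietin, the main growth factor of platelets, had 5, 15 and 14 counts at 21% O2 and 83, 117 and 122 at 1% O2. These are 0.192, 0.569 and 0.568 CPM against 3.26, 3.73 and 3.83 CPM. Even the lowest hypoxic sample was well above the highest normoxic one. The log2 fold change was 3.02 (SE 0.31, 95% CI 2.31 to 3.73; edgeR adjusted p = 3.86e-05).

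A limit on the Thpo value comes from its neighbor. Thpo shares 239 exon bases with Chrd, which encodes the secreted BMP antagonist chordin and is read from the opposite strand, its first exon lying inside Thpo and its later exons running past the Thpo start. Chrd was the more abundant by far, with 334, 288 and 326 counts at 21% O2 and 2569, 3734 and 3422 at 1% O2. Its log2 fold change was 3.15 (SE 0.09; edgeR adjusted p = 4.12e-08), close to that of Thpo. Thpo counts were 1.497%, 5.21% and 4.29% of Chrd counts at 21% O2 and 3.23%, 3.13% and 3.57% at 1% O2 (exact permutation test of the means, p = 0.8). Whether reads were counted by strand is not given in the sources used here, and without strand the reads of both genes in the shared bases cannot be told apart. How much of the Thpo value rests on the shared bases cannot be read from counts per gene, and the rise of Thpo is therefore uncertain.

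**Figure D2:**
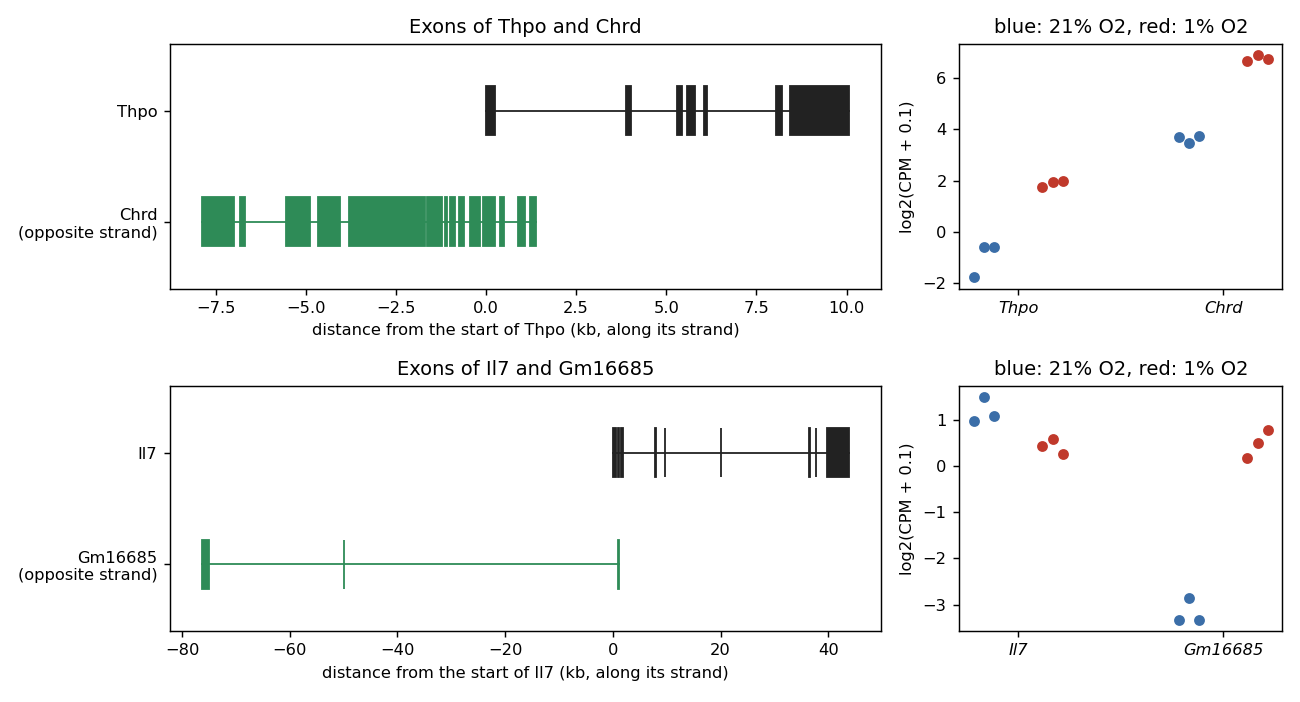
Left, merged exons of Thpo and Il7 (black) and of the opposite-strand genes Chrd and Gm16685 (green), by distance from the start of the cytokine gene in kb. Right, level of each gene in each sample as log2 of CPM plus a pseudocount of 0.1, blue at 21% O2 and red at 1% O2. Chrd rose together with Thpo, while Gm16685 rose from 0 or 1 count where Il7 was lower.

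Flt3l (ENSMUSG00000110206, chromosome 7, 45129788 to 45136432, minus strand) encodes FLT3 ligand, the growth factor of dendritic cell precursors. It was at 5.89, 7.63 and 6.73 CPM at 21% O2 and at 9.86, 9.03 and 11.5 CPM at 1% O2. All hypoxic samples were above all normoxic samples. The increase of 1.502-fold (95% CI 1.21 to 1.86; edgeR adjusted p = 0.0046) lay at the 1.5-fold line itself, and small changes of method moved it below. Its log2 fold change was 0.58 with the replicate block and 0.56 with upper-quartile scaling or without the filter. It was 0.49 without normoxic replicate 1, 0.58 without normoxic replicate 3 and 0.48 without hypoxic replicate 3. None of these passes the fold, though the adjusted p stayed between 0.00138 and 0.0266. Flt3l also shares 856 exon bases on its own strand with the gene model Gm45713, which had 75, 113 and 45 counts at 21% O2 and 88, 98 and 69 at 1% O2 and was not called. How reads in the shared bases were divided is an estimate.

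Kitl (ENSMUSG00000019966, chromosome 10, 100015630 to 100100416, plus strand) encodes stem cell factor, the ligand of KIT. It was at 38.3, 44.7 and 42.3 CPM at 21% O2 and at 34.95, 57.5 and 47.3 CPM at 1% O2. Hypoxic replicate 1 was the lowest and hypoxic replicate 2 the highest of the 6 samples, so the hypoxic range encloses the normoxic one. The log2 fold change was 0.16 (SE 0.15, 95% CI -0.18 to 0.50; edgeR adjusted p = 0.378). Its sign turned without hypoxic replicate 2 (-0.02). Without hypoxic replicate 1 the log2 fold change was 0.33, with an adjusted p of 0.0236, and remained under the fold.

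Promoter windows of 300 bases around a RefSeq start on GRCm38.p6, most of them upstream of it, were at hand for Csf1, Csf2, Kitl, Flt3l and Thpo, 5 of the 10 genes. Windows of the 3 progenitor factors are shown because these genes, with related roles, gave a call well above the fold line, a call at the line and no call. Capitals mark the core of the hypoxia response element, searched as ACGTG or GCGTG on both strands.
Thpo, chr16:20734462-20734761, minus strand: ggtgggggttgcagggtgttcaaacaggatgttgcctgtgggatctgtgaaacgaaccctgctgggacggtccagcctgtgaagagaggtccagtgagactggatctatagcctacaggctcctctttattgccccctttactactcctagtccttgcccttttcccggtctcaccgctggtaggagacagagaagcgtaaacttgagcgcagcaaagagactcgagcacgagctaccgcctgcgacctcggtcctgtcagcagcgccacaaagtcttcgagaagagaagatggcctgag
Flt3l, chr7:45136383-45136682, minus strand: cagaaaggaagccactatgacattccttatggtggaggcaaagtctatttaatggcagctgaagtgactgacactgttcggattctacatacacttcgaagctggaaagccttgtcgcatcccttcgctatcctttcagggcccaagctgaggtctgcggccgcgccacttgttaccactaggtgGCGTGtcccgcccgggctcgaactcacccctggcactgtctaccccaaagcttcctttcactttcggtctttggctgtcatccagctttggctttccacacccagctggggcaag
Kitl, chr10:100015571-100015870, plus strand: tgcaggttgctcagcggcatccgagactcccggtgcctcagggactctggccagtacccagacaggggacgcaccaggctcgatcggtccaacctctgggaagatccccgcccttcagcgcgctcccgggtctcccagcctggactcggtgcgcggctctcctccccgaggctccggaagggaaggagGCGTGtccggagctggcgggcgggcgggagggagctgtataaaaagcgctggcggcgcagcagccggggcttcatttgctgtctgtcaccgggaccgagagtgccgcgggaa
GCGTG starts 65 bases before the RefSeq start in Flt3l and 62 before it in Kitl. In Kitl the RefSeq start lies downstream of the GENCODE start at 100015630, so that the match is inside the GENCODE gene. The Thpo, Csf1 and Csf2 windows held no match, and neither did that of Chrd. A further Thpo window, chr16:20730549-20730848, belongs to another RefSeq start inside the GENCODE gene and held no match either. It is not printed. The Csf2 window, at 54249850 to 54250149, lies wholly upstream of the GENCODE start at 54249667, so it does not cover the bases around that start. The core is short and frequent, and 43.8% of all 32851 windows held it. The NF-kB consensus occurred in Csf1 (starting 154 bases before the start) and Kitl (152 before, again inside the GENCODE gene) and in 8.46% of all windows. The CK-1 core GAGATTCC (0.904% of windows) and the AP-1 site TGAGTCA or TGACTCA (5.20%) occurred in none of the 5 genes' windows. A match is a description of the letters in this window only.

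Cytokines of lymphoid cells moved in different directions and all were of low level. Tslp (ENSMUSG00000024379, chromosome 18, 32815383 to 32819797, plus strand) encodes thymic stromal lymphopoietin, an alarmin that acts on dendritic cells and innate lymphoid cells. It had 6, 8 and 9 counts at 21% O2 and 12, 34 and 37 at 1% O2, or 0.231, 0.304 and 0.365 CPM against 0.471, 1.08 and 1.16 CPM. The groups did not overlap, but hypoxic replicate 1 was nearer to the normoxic samples than to the other hypoxic ones. The log2 fold change was 1.61 (SE 0.42, 95% CI 0.67 to 2.55; edgeR adjusted p = 0.00795), and it ran from 1.39 to 1.90 when each sample was left out in turn, past the call each time.

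Il7 (ENSMUSG00000040329, chromosome 3, 7569994 to 7613760, minus strand) encodes a survival factor of lymphocytes and was the only one of the tested cytokines called lower. It had 48, 71 and 50 counts at 21% O2 and 32, 44 and 35 at 1% O2. The levels were 1.85, 2.69 and 2.03 CPM against 1.26, 1.404 and 1.10 CPM, and all hypoxic samples were below all normoxic ones. The log2 fold change was -0.80 (SE 0.23, 95% CI -1.32 to -0.29; edgeR adjusted p = 0.0125). Without hypoxic replicate 3 the adjusted p was 0.0539 and the call was lost. Il7 shares 105 exon bases with the antisense gene Gm16685, which had 0, 1 and 0 counts at 21% O2 and 26, 41 and 51 at 1% O2 and was called higher. No fold is given, because all of its normoxic counts were below the floor of 3 and it passed the filter through the hypoxic samples. Reads of either gene in the shared bases cannot be assigned without strand.

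Il15 (ENSMUSG00000031712, chromosome 8, 82331632 to 82403222, minus strand), whose protein supports natural killer and memory T cells, was at 0.616, 1.25 and 0.771 CPM at 21% O2. It was at 1.14, 1.21 and 1.19 CPM at 1% O2. Normoxic replicate 2 was above all 3 hypoxic samples, and the groups overlap. The log2 fold change was 0.42 (SE 0.29, 95% CI -0.24 to 1.09; edgeR adjusted p = 0.238), an interval wide enough to hold a 2-fold change. Without normoxic replicate 2 it was 0.76 with an adjusted p of 0.0418, which would be a call.

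Per kb of exon, levels of the genes can be set beside each other. At 21% O2 Csf1 came first at 129 ± 9.55 CPM per kb, followed by Kitl at 7.06 ± 0.544, Il34 at 2.23 ± 0.403 and Flt3l at 1.74 ± 0.224 (SD, n = 3). Sample ranges of Il34 and Flt3l overlap, while those of Csf1, Kitl and Il34 do not. Il15 (0.389 ± 0.147), Il7 (0.387 ± 0.0787), Tslp (0.225 ± 0.0505), Thpo (0.169 ± 0.0826), Csf3 (0.0659 ± 0.0673) and Csf2 (0.0507 ± 0.0878) followed, and each overlaps the next except Il7 and Tslp. At 1% O2 the order of the upper genes was Csf1 (125 ± 4.58 CPM per kb), Csf3 (10.4 ± 1.83) and Kitl (7.88 ± 1.91). Csf3 thereby moved from the ninth place to the second, although its range still overlaps that of Kitl. Il34 (3.46 ± 0.289), Flt3l (2.61 ± 0.329), Thpo (1.37 ± 0.117) and Tslp (0.681 ± 0.285) followed without overlap between neighbors. Tslp overlaps Il15 (0.523 ± 0.0170), which lay above Il7 (0.221 ± 0.0269), and Il7 overlaps Csf2 (0.0959 ± 0.0898).

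**Figure D3:**
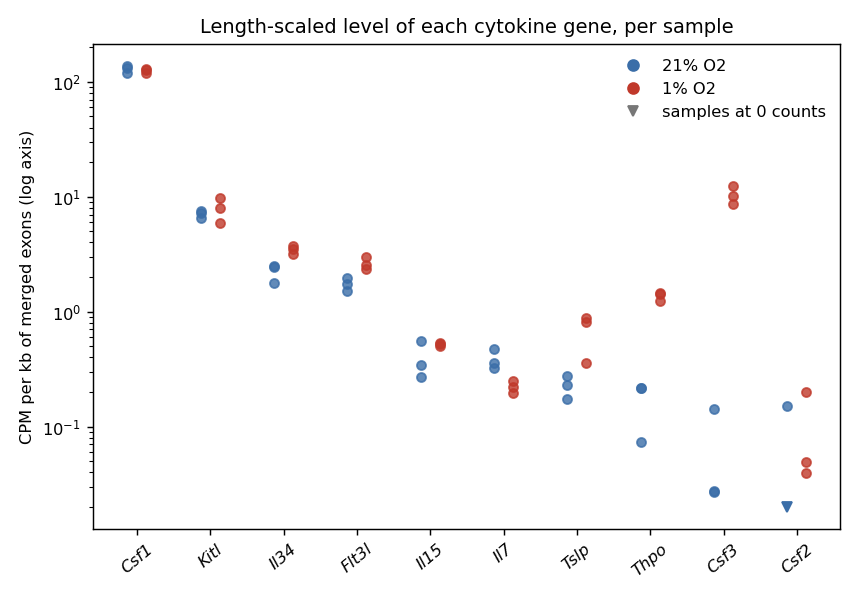
Level of each cytokine gene in each sample, as CPM per kb of merged exons on a log axis, ordered by the mean at 21% O2. Blue points are samples at 21% O2, red points samples at 1% O2, and triangles drawn at the lower edge are the samples with 0 counts of Csf2. Csf1 lies above all others in both groups, and Csf3 goes from 0.0659 to 10.4 CPM per kb.

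Receptors of these cytokines were examined in the same RNA. Of 14 receptor genes, 11 were tested, and 3 were called higher and 1 lower, with a median log2 fold change of 0.39. This share is close to that of all tested genes. Kit, the receptor of stem cell factor, was at 5.51, 3.23 and 5.27 CPM at 21% O2 and at 13.9, 16.6 and 15.2 CPM at 1% O2. All hypoxic samples were above the normoxic ones, with a log2 fold change of 1.71 (SE 0.18; edgeR adjusted p = 3.93e-05). Kitl over Kit in CPM was 9.61 ± 3.71 at 21% O2 and 3.02 ± 0.481 at 1% O2 (exact permutation p = 0.1). KIT also marks mast cells. The summed level of 7 mast cell genes was 0.811 to 1.33 CPM at 21% O2 and 0.255 to 0.471 CPM at 1% O2. Hdc gave most of it and was called lower, with 26, 34 and 20 counts against 11, 5 and 14 (log2 fold change -1.60, SE 0.39; edgeR adjusted p = 0.00576). Fcer1a, Ms4a2 and Mcpt4 were at 0 in all samples, and the part of mast cells in the Kit level was not tested.

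Receptors for GM-CSF were detected although Csf2 itself was at the floor. Csf2ra, the ligand-binding subunit, was at 22.8, 36.1 and 29.7 CPM at 21% O2 and at 48.5, 46.7 and 49.2 CPM at 1% O2. Its log2 fold change was 0.70 (SE 0.13; edgeR adjusted p = 0.00155), but 0.54 and under the fold without normoxic replicate 1. Csf2rb, the shared signaling subunit, was not called (log2 fold change -0.09, 95% CI -0.48 to 0.29), and its near copy Csf2rb2 was called higher (0.88, SE 0.18). Csf2rb2 over Csf2rb in CPM went from 0.420 ± 0.0213 to 0.812 ± 0.0505. Reads of such copies are divided by an estimate, so both values are uncertain.

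Csf1r, the receptor of CSF1 and IL-34, was at 32.6, 46.0 and 42.6 CPM at 21% O2 and at 26.8, 43.6 and 32.1 CPM at 1% O2. The groups overlap, and the log2 fold change of -0.24 (95% CI -0.63 to 0.16; edgeR adjusted p = 0.264) was not called. It shares 873 exon bases with Hmgxb3 on the opposite strand, which was at 51.2 and 56.3 CPM in the group means. Csf1r is a macrophage gene, and 9 of the 14 tested macrophage markers were called lower at 1% O2, among them Lyz2 (log2 fold change -1.12) and C1qa (-1.26), while Csf1r, Itgam (-0.0015), Cd14 (0.08), Ptprc (-0.59) and Mrc1 (-0.64) were not called. Ptprc was called lower under 8 of the alternatives and Mrc1 under 7, while Laptm5 lost its call under 3 and Adgre1 under 1. The part of macrophages in the cytokine and receptor levels was not tested. Crlf2, the TSLP receptor, was at 25.4, 29.4 and 28.5 against 38.6, 43.4 and 35.2 CPM, above at 1% O2 in every sample (edgeR adjusted p = 0.00117) but under the fold with a log2 fold change of 0.49. Il7r, its partner, was at 0.495 ± 0.0968 and 0.878 ± 0.330 CPM and not called (0.84; edgeR adjusted p = 0.0669), although it was called without hypoxic replicate 1 (1.10; adjusted p = 0.0196). Il2rg, the common gamma chain that IL-7 and IL-15 use, was lower, at 2.62, 3.49 and 3.29 CPM against 1.92, 1.56 and 1.76 CPM (-0.84, SE 0.19; edgeR adjusted p = 0.00422). Il15ra (0.04), Il2rb (0.39) and Ptprz1 (-0.15), another receptor of IL-34, were not called. Csf3r, the G-CSF receptor, had 5, 20 and 5 counts at 21% O2 and 4, 8 and 6 at 1% O2 and was not tested. Flt3, the receptor of FLT3 ligand, had at most 1 count in any sample.

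**Figure D4:**
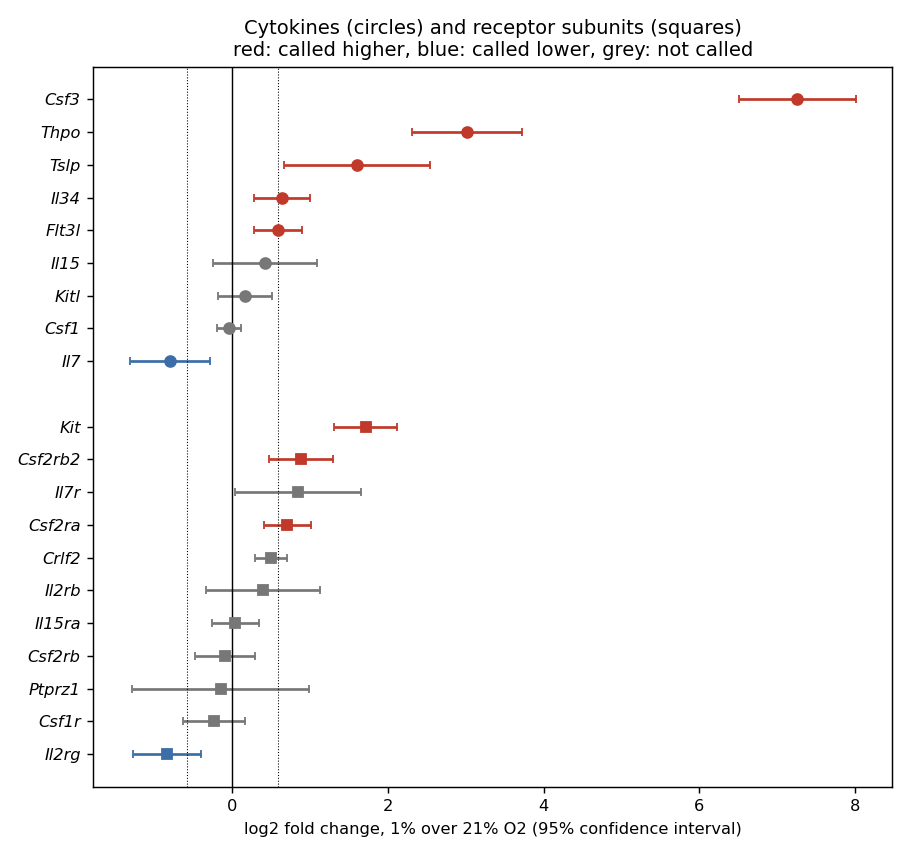
Log2 fold change at 1% against 21% O2 with its 95% confidence interval for the 9 tested cytokine genes (circles) and the 11 tested receptor genes (squares). Dotted lines mark a change of 1.5-fold, red genes were called higher, blue lower and grey not called. Csf3 (7.26) and Thpo (3.02) lie apart from the rest, and Il7 (-0.80) and Il2rg (-0.84) are the genes called lower.

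Kinases, STAT proteins and inhibitors that act below these receptors moved both ways. Of 18 tested genes, 5 were called higher and 4 lower, against 18.9% and 15.3% of all tested genes, and the median log2 fold change was -0.07. Jak3, the kinase tied to the common gamma chain, was called higher, from 17.2, 34.7 and 24.3 CPM to 91.2, 86.4 and 98.0 CPM (log2 fold change 1.85, SE 0.20; edgeR adjusted p = 4.58e-05). It shares 404 exon bases with Insl3, which had at most 34 counts in a sample. Also higher were Jak2 (0.87), the kinase below the GM-CSF receptor, Stat3 (0.65), the main STAT of G-CSF, and Cish (1.02), an inhibitor induced by STAT5. Tyk2 (0.60) was at the fold line and lost its call under 4 alternatives. Among the genes called lower were Ptpn6 (-1.56) and Lyn (-0.60), and Lyn also lost its call under 4 alternatives. Ptpn6 is known as a gene of blood cells, and it moved in the same direction as the 9 macrophage markers that were called, whose part was not tested. Stat5a (-0.29) and Stat5b (-0.19), the shared STATs of this cytokine group, changed by less than the fold.

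Among 12 proteins that bind or cut cytokine mRNAs, 3 were called higher and 0 lower (median log2 fold change 0.21), where 34.2% of all tested genes were called in either direction. Tial1 (1.01, SE 0.10) and Tia1 (0.65, SE 0.11), which bind AU-rich messages and hold back their translation, were higher, Tia1 under the fold without normoxic replicate 1 (0.56) or hypoxic replicate 3 (0.58). Zc3h12a (0.92, SE 0.12), which encodes the nuclease Regnase-1, was higher as well. Zfp36, which encodes the decay factor tristetraprolin, was at 46.1, 54.9 and 62.1 CPM at 21% O2 and at 38.1, 58.5 and 51.1 CPM at 1% O2, and was not called (-0.14; edgeR adjusted p = 0.443). Its more abundant relatives moved in opposite directions, without overlap but under the fold. Zfp36l1 was higher (0.26, edgeR adjusted p = 0.0163) and Zfp36l2 lower (-0.51, edgeR adjusted p = 0.000164). Zfp36l1 shares 1672 exon bases with Gm26669 on the opposite strand.

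Proteases and their partners that release membrane-bound factors, such as those encoded by Kitl, Csf1 and Flt3l, were detected in all samples. Of 9 genes, 3 were called higher and 0 lower (median log2 fold change 0.29), a share near the 34.2% of all tested genes. Mmp9, which can release soluble KIT ligand, went from 0.616, 0.873 and 0.527 CPM to 4.36, 11.7 and 5.12 CPM (3.39, SE 0.44; edgeR adjusted p = 0.00015). Its level was low in normoxic samples, and hypoxic replicate 2 was the highest by far. Rhbdf2, a partner of ADAM17, was higher (1.36, SE 0.10), and so was Timp3 (1.29, SE 0.15), an inhibitor of ADAM17. Timp3 shares 1733 exon bases with Syn3 on the opposite strand, which had at most 38 counts in a sample. Adam17 itself (0.29) and Adam10 (-0.23) changed by less than the fold.

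**Figure D5:**
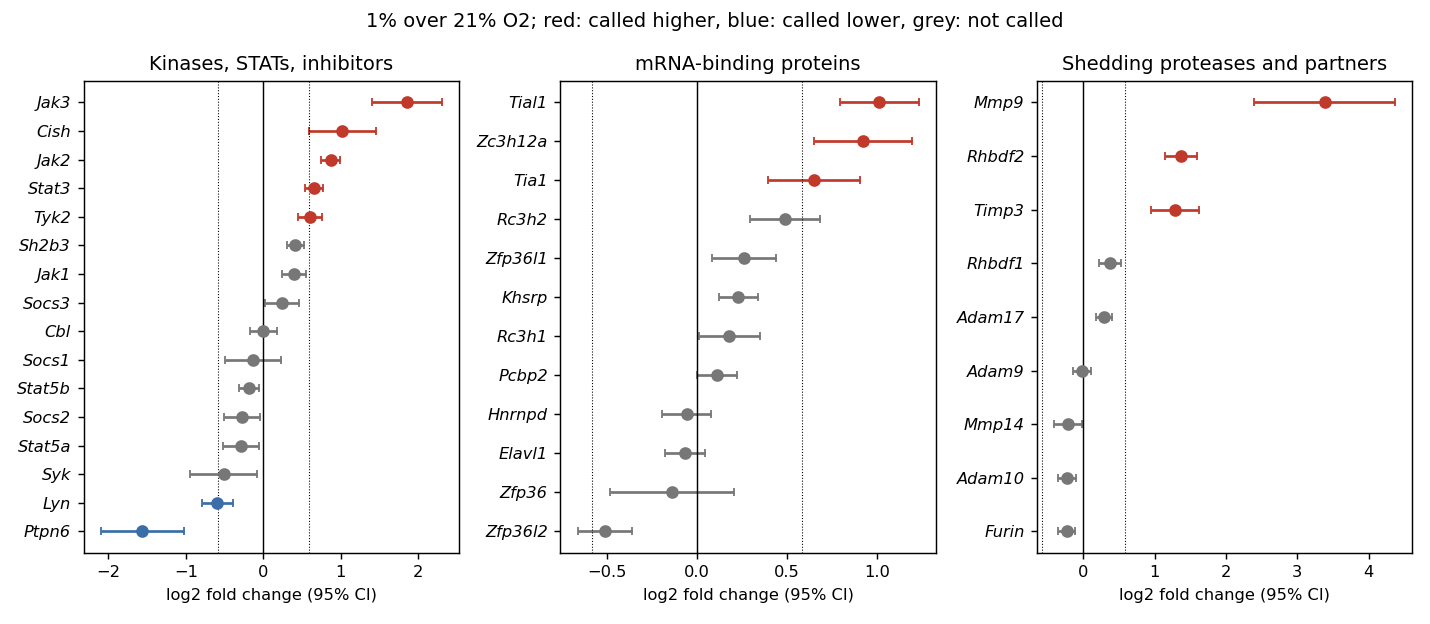
Log2 fold change with its 95% confidence interval for genes of 3 lists, the kinases, STATs and inhibitors, the mRNA-binding proteins, and the shedding proteases with their partners. Dotted lines mark 1.5-fold, red genes were called higher, blue lower and grey not called. The first list holds calls in both directions and each of the others 3 higher and 0 lower, beside 34.2% of all tested genes called.

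Of 8 related cytokines outside the group, none passed the filter. Il3 and Il9 had 0 counts in all 6 samples. Il2, Il4, Il5, Il13 and Il21 had 0 to 4 counts in a sample. Epo, the gene of erythropoietin, had 0, 0 and 0 counts at 21% O2 and 14, 11 and 11 at 1% O2. Set against a floor of 3 counts per normoxic library, its hypoxic mean of 0.416 CPM was at least 3.55-fold higher. Epo shares 104 exon bases on its own strand with Gnb2, which was far more abundant and was not called (log2 fold change -0.02), so this low count is uncertain.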

How the data were processed

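RNA from 6 samples of PSCs cocultured with mT3 organoids was sequenced by the authors from poly(A) libraries. They trimmed the reads with Cutadapt, mapped them to GRCm38 with STAR (2.6.1b) and estimated counts with RSEM (1.3.1). The authors deposited expected counts per gene, which were not normalized and of which none had a fraction. RSEM divides reads that fit several genes by an estimate, so near copies and overlapping genes are uncertain. The strand setting and the annotation release of the counting are not given in the sources used here. Groups came from the sample labels and gene names from GENCODE M21, which held 55240 of the 55426 identifiers.

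Counts were scaled by TMM and filtered with filterByExpr, and hypoxia was compared with normoxia by edgeR 4.0.16 (quasi-likelihood F test, R 4.3.3, limma 3.58.1) with Benjamini-Hochberg adjustment over 16207 genes, without covariates. Calls needed a fold beyond 1.5 and an adjusted p under 0.05. The SE is the log2 fold change divided by the root of F. CPM are counts relative to the TMM-scaled library size, and CPM per kb divide by merged exon length. Floors of 3 counts cover counting error only, since PCR copies of a molecule are not independent. Replicates of a group differed by more than sampling noise (chi-square of counts over genes, 5.68 to 22.5 per degree of freedom), so none was taken as a library deposited more than once, which does not show that they are independent. The fits were tested on simulated data. Figures were drawn with matplotlib 3.10.9.

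The 10 cytokine genes and all lists (receptors, signaling, mRNA-binding, shedding, related cytokines, markers) were chosen with earlier results of these data known. Named from the lists were the detected receptors and, of the other lists, at most 5 called genes in each direction by size, and a few list genes counted in the totals are not reported here by name. Zfp36, Zfp36l1, Zfp36l2, Stat5a, Stat5b, Adam10, Adam17, single marker genes and the overlapping genes fall outside this rule, named once their values had been seen. Alternatives were the replicate number as a block, DESeq2 1.42.0 with and without it, limma-voom, other scalings, filters and fold thresholds, and each sample left out. The single-cell and protein measurements of the study were not analysed here.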

Additional observations from a re-analysis of the deposited data

How the results depend on the processing

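Csf3 and Thpo were called higher under every alternative that kept the fold threshold, and Tslp under every one in which it passed the filter, which it did not at a mean of at least 1 CPM. Of the 10 cytokine genes, 6 were called as reported. With a fold threshold of 2, 3 were called, 3 higher and 0 lower. DESeq2 with the replicate block called 0 lower, since the adjusted p of Il7 was then 0.062. When each sample was left out in turn, 4 to 6 were called, 4 or 5 of them higher and 0 or 1 lower. Kitl ran from -0.023 to 0.33 on the log2 scale in these fits and Csf3 from 6.89 to 8.42. Of the receptor, signaling, mRNA-binding and shedding genes, 19 were called as reported, 34 with no fold threshold, 10 with a threshold of 2 and 17 to 20 with a sample left out.

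Replicates carry the numbers 1 to 3 in both groups, and the labels do not say whether equal numbers mark pairs. Same-numbered samples deviated from their group means with correlations of 0.142, 0.139 and 0.0378, all positive. Summed macrophage markers were lowest in replicate 1 and highest in replicate 2 of both groups. Samples with different numbers were not compared, so these values do not decide the question. The main fit was left without pairs, and the replicate block was an alternative. In edgeR the replicate block left 5 cytokine genes called in place of 6, Flt3l falling just under the fold (0.58), and moved the calls over all genes from 3068 higher and 2479 lower to 3072 and 2500. Those were 5150 and 5018 with no fold threshold and 1929 and 1227 with a threshold of 2. At 0 to 5 counts per library, as for Csf2, Flt3 and normoxic Csf3, depth limits what a difference can show.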
